A study of Mus musculus with 20 samples.

Results

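The 34 genes described here encode the scaffold of the lung and mark the cells that build it. They are 10 collagen chains, the elastic fibre and adhesive glycoproteins, small proteoglycans and matricellular proteins, the crosslinking enzyme lysyl oxidase, genes of lung fibroblasts, and genes of smooth muscle and pericytes. They were named by a fixed list of symbols and matched to Ensembl identifiers, 34 of the 49315 genes in the deposited tables. The rule uses no measured value, but the list was drawn up with earlier results of these data known. RNA was sequenced from eosinophils that had been flow sorted from mouse lung, and each library pooled the lungs of 3 to 5 mice. The series has 20 samples in 4 groups of 5. Resting lungs came from untreated C57BL/6 mice, and the other groups are Balb/c lungs transplanted into C57BL/6 recipients and taken at day 7 with costimulatory blockade (CSB), at day 30 with CSB and at day 7 without CSB. The labels give the eosinophils as recipient cells. CSB withholds the second signal that T cells need for activation. Count columns could be tied to samples for resting lung (n = 5) and for day 7 without CSB (n = 5), called day 7 below, and the CSB groups were not analysed here.

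Fibroblasts, smooth muscle cells and pericytes secrete collagens, elastin and proteoglycans, which assemble outside the cell into fibrils, basement membranes and elastic fibres. Type I and type III collagen form the fibrils that bear tension, and type IV collagen forms the sheet under endothelium and epithelium. In the alveolar wall, elastic fibres give recoil, and resident fibroblasts that carry the receptor Pdgfra and the transcription factor Tcf21 support the epithelium. Eosinophils are granulocytes and are not known as a main source of these proteins. Which cells the transcripts came from was not measured, and in bulk libraries fewer cells of a type and less RNA per cell cannot be told apart.

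Total counts were 6666577 to 12883144 per resting library and 15695074 to 26683784 per day 7 library, and the members took 0.345 to 0.469% of them at rest and 0.0863 to 0.147% at day 7. The resting and day 7 columns stood in separate tables, so batch and group cannot be told apart. Graft tissue was Balb/c and resting lung C57BL/6, so for transcripts of graft cells the strain and the condition cannot be told apart either. Nothing in the labels says that pools were independent beyond their mice, and p-values measure the spread between pools. The eosinophil receptor genes Siglecf and Ccr3 were present in both groups. Siglecf had 148 ± 34.5 CPM in resting and 222 ± 70.2 CPM in day 7 libraries, and Ccr3 had 356 ± 141 and 443 ± 254 CPM. Values are mean ± SD, n = 5 each, in CPM, counts scaled to library size and corrected for composition. Siglecf passed as higher (adjusted p = 0.0465, edgeR's quasi-likelihood test). Of 13 eosinophil markers 2 were higher, 6 lower and 5 did not pass, where 23.3% of all genes tested were higher and 23.4% lower. The sums of the 13 markers were 2819 to 4896 CPM at rest and 2525 to 5474 CPM at day 7. Markers of other cells were present too. Endothelial markers summed to 3512 to 4704 CPM in resting libraries and 180.2 to 244 CPM at day 7 (14 of 14 called lower), epithelial markers to 3492 to 5049 and 82.3 to 557 CPM (13 of 14 lower), and platelet markers to 232 to 413 and 56.4 to 79.7 CPM (8 of 8 lower). Monocyte and macrophage markers went the other way, with 2905 to 3787 CPM at rest and 4728 to 9925 CPM at day 7 (10 of 14 higher, 1 lower). No gene of these lists was at 0 in every library of a group, and the part of such cells in the results was not tested.

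Upstream sequences are shown for 3 genes: Inmt and Ccn1, which fell, and Col3a1, which did not pass the test. They are from RefSeq on GRCm38.p6, read 5′ to 3′ on the strand of the gene, and cover the part of the 250 bases before the RefSeq start that overlaps no annotated exon: chr6:55175044-55175240 (-), chr3:145649986-145650235 (-) and chr1:45311288-45311537 (+). RefSeq starts can differ from the ends of the gene spans printed below, which are from GENCODE, and for some members the searched window lies inside that span. In Inmt the capitals mark a 46-base unit that stands there in 2 adjacent copies, and a run this long was repeated in 0.374% of 32851 promoters. In the others, capitals mark GGAATG, the motif of TEAD factors, and GGGCGG, the motif of Sp1, on either strand.
Inmt: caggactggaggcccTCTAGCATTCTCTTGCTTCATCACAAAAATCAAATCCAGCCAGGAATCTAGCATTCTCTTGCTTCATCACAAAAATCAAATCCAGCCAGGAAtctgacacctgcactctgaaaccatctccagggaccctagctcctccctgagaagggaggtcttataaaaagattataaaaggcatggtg
Ccn1: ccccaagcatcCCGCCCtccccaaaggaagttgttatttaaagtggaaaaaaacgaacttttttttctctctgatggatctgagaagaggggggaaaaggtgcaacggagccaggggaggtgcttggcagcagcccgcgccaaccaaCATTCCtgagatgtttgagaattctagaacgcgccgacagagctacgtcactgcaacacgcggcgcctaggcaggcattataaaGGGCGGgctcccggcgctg
Col3a1: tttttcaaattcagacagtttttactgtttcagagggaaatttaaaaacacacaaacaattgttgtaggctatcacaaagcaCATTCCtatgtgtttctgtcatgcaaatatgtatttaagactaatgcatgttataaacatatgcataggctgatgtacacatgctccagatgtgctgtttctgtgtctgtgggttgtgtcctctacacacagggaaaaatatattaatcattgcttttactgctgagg
The GGAATG match lies with its first base at -103 in Ccn1 and at -168 in Col3a1, both as its reverse complement. A search of both strands found this motif in 4 of the 22 members with a searched entry (Acta2, Ccn1, Col3a1 and Col6a2), against 12.6% of all promoters. GGGCGG was in 12 of 22 (32.7% of all promoters), the E-box CANNTG in 12 (66.2%), its form CACGTG in 1 (6.02%), and the CArG box of serum response factor in 0 (1.47%). CACGTG is counted within CANNTG. A match is a description of these letters and not a binding site. Searched entries could be shorter than 250 bases, as with 197 for Inmt, 123 for an entry of Col1a2 and 33 for an entry of Acta2. A motif that was not found may therefore lie outside the bases searched.

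Most of the 34 genes were lower in the day 7 libraries of sorted eosinophils than in the resting libraries, and 3 were higher. By edgeR's quasi-likelihood test at an adjusted p below 0.05, 28 members were lower, where 23.4% of the 16500 genes tested were, and 3 were higher (Col1a1, Fn1 and Lum), where 23.3% of all genes were. Col1a2, Col3a1 and Dcn did not pass. Called falls of at least 4-fold were found for 24 members, against 10.1% of all genes. In 25 members every day 7 library lay below every resting library, which held for 18.7% of all genes, and in the other 9 the groups overlapped. The median log2 fold change of the members, day 7 minus resting, was -3.03, against 0.047 for all genes. Scaling to library totals alone shifted the median of all genes by -0.19 and turned 3843 higher and 3859 lower genes into 2495 and 4883; it left 28 members lower and 1 higher.

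**Figure D1:**
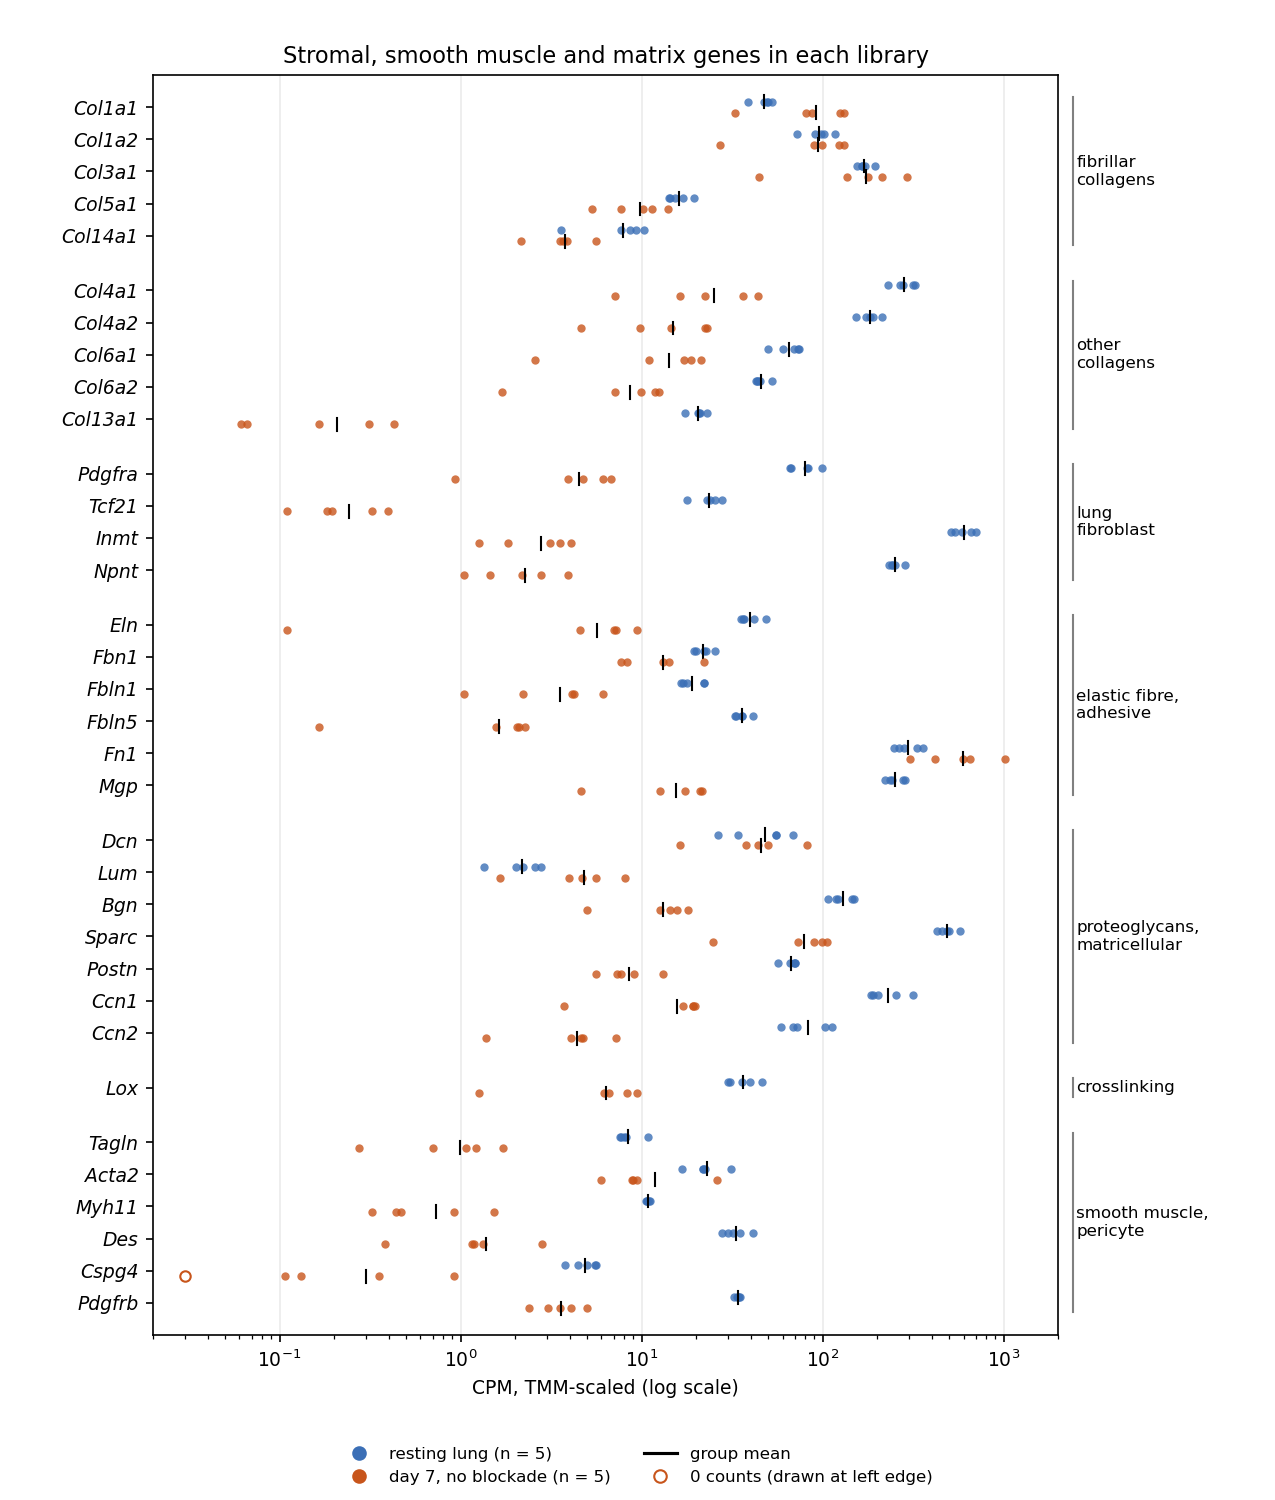
CPM on a log axis for each of the 34 genes, ordered by role, with 1 point per library (blue for the 5 resting libraries, orange for the 5 day 7 libraries) and a black bar at the group mean. The orange points lie left of the blue ones for most genes, by the widest margin for Inmt, Npnt, Tcf21 and Col13a1, and they overlap for Col1a2, Col3a1, Dcn and 6 other genes; the open symbol is the library with 0 counts of Cspg4.

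Libraries of one group differed much more at day 7 than at rest. The highest library exceeded the lowest by a median of 1.39-fold over the members at rest and of 4.89-fold at day 7. Cspg4, with a library at 0 counts, is not in the day 7 median. Some lowest day 7 libraries held few counts, such as 2 for Eln, 3 for Fbln5 and 1 for Col13a1, so their ratios are uncertain. Day 7 replicate 2 was the lowest of the day 7 libraries in 28 of the 34 genes and the highest in 1, Fn1. Day 7 replicate 1 was the highest in 17, and resting replicate 1 was the highest of the resting libraries in 18. In replicate 2 the epithelial, mesothelial and T cell markers were also at their lowest of day 7 (82.3, 5.49 and 357 CPM). Monocyte and macrophage markers were at their highest there (9925 CPM). Further fibroblast markers (267 CPM), other smooth muscle and pericyte markers (52.5 CPM), endothelial markers (184.8 CPM) and platelet markers (67.6 CPM) were not at their lowest. Their lowest day 7 sums were, in that order, 256 CPM (replicate 3), 42.2 CPM (replicate 1), 180.2 CPM (replicate 5) and 56.4 CPM (replicate 1). The part of these cells was not tested. Without day 7 replicate 2, 26 members were lower and 3 higher.

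Fibrillar and fibril-associated collagens had 2 of 5 members lower, 1 higher and a median log2 fold change of -0.031, the nearest to 0 of the roles. Values below are given in the order of replicates 1 to 5, in CPM scaled by TMM, a normalization that corrects for composition. Col1a1, the alpha 1 chain of type I collagen (ENSMUSG00000001506, chromosome 11, 94936224 to 94953042, mm10), rose by 0.94 ± 0.28 on the log2 scale (SE, quasi-likelihood adjusted p = 0.0153). Col1a1 had 47.2, 38.5, 52.4, 49.5 and 49.8 CPM in the resting libraries and 124, 32.7, 87.5, 131 and 81.3 CPM at day 7. Day 7 replicate 2 lay below every resting library and the other 4 above them. The call of Col1a1 ended with library totals alone (adjusted p = 0.0508) and with limma-voom (adjusted p = 0.0544). Its partner in the trimer is Col1a2 (ENSMUSG00000029661, chromosome 6, 4504814 to 4541544). Col1a2 had 117, 72.4, 102, 97.6 and 90.8 CPM in the resting libraries and 132, 27.0, 98.9, 122 and 89.3 CPM at day 7. The groups overlapped, and the difference was -0.031 ± 0.31 (adjusted p = 0.948). Col3a1, the chain of type III collagen found beside type I in stretchy tissue (ENSMUSG00000026043, chromosome 1, 45311538 to 45349706), spread widely at day 7. Col3a1 had 171, 166, 193, 165 and 154 CPM in the resting libraries and 293, 44.7, 178, 213 and 136 CPM at day 7. Replicate 2 was again the lowest, below every resting library. Its difference was 0.025 ± 0.34 (adjusted p = 0.961), and the sign turned under 4 other settings.

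Col5a1, which helps to start type I fibrils, and Col14a1, a collagen that coats fibrils, fell. Col5a1 had 17.0, 14.3, 15.3, 19.3 and 14.2 CPM in the resting libraries and 11.5, 5.33, 10.2, 14.0 and 7.65 CPM at day 7. The groups did not overlap, and Col5a1 fell 1.64-fold (log2 fold change -0.72 ± 0.23, adjusted p = 0.0189), a call that ended without resting replicate 4 (adjusted p = 0.0599). Col14a1 had 10.3, 3.58, 8.58, 7.71 and 9.34 CPM in the resting libraries and 5.61, 2.14, 3.53, 3.89 and 3.66 CPM at day 7. The lowest resting library, replicate 2, lay within the day 7 range, and the log2 fold change was -1.07 ± 0.30 (adjusted p = 0.00921).

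All 5 network, microfibrillar and transmembrane collagens were lower, without overlap between the groups, with a median log2 fold change of -3.48. Col4a1 (ENSMUSG00000031502, chromosome 8, 11198423 to 11312826) and Col4a2 (ENSMUSG00000031503, chromosome 8, 11312805 to 11449287) encode the chains of the main type IV collagen of basement membranes and lie head to head on opposite strands. Col4a1 had 322, 229, 279, 316 and 269 CPM in the resting libraries and 36.4, 7.09, 44.2, 22.3 and 16.2 CPM at day 7. It fell 11.2-fold (-3.48 ± 0.39 on the log2 scale, adjusted p = 1.00e-05). Col4a2 had 212, 152, 183, 189.7 and 174 CPM in the resting libraries and 22.4, 4.62, 23.1, 14.6 and 9.75 CPM at day 7. Col4a2 fell 12.2-fold (-3.61 ± 0.36, adjusted p = 3.05e-06), close in size to its neighbour. Their annotated exons overlap, and no source used here gives the strand setting of the counting.

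Col6a1 and Col6a2 encode chains of type VI collagen, which forms beaded microfibrils around cells. Col6a1 had 74.4, 50.02, 60.5, 73.0 and 69.8 CPM in the resting libraries and 17.2, 2.58, 18.7, 21.4 and 11.05 CPM at day 7. Col6a2 had 43.3, 43.1, 44.0, 52.7 and 45.2 CPM in the resting libraries and 11.9, 1.70, 9.92, 12.5 and 7.17 CPM at day 7. Both fell, Col6a1 by 4.63-fold (adjusted p = 0.000462) and Col6a2 by 5.30-fold (adjusted p = 0.00013), and day 7 replicate 2 was far below the rest in each. Col13a1, a collagen anchored in the cell membrane that marks a class of alveolar fibroblasts in mouse lung (ENSMUSG00000058806, chromosome 10, 61838236 to 61979108), was close to the floor of detection at day 7. Col13a1 had 23.0, 20.5, 17.5, 20.7 and 20.97 CPM in the resting libraries and 0.0609, 0.165, 0.314, 0.0659 and 0.431 CPM at day 7. The day 7 values rest on 1 to 8 counts per library, and the fall was 89.6-fold (-6.49 ± 0.32, adjusted p = 4.18e-09), or -7.49 on the log2 scale with libraries thinned to equal depth.

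The 4 fibroblast receptor and lung fibroblast genes were all lower and had the lowest median of the roles, -6.67. Inmt, an N-methyltransferase of small amines that is abundant in lung (ENSMUSG00000003477, chromosome 6, 55170626 to 55175043, minus strand), fell furthest. Inmt had 702, 586, 537, 663 and 509.9 CPM in the resting libraries and 1.83, 1.26, 4.08, 3.56 and 3.12 CPM at day 7. This was a fall of 214-fold (-7.74 ± 0.31 on the log2 scale, adjusted p = 1.76e-09). Npnt, nephronectin, a basement membrane ligand of integrins (ENSMUSG00000040998, chromosome 3, 132881745 to 132950291), went the same way. Npnt had 286, 241, 241, 249.8 and 231 CPM in the resting libraries and 1.46, 1.04, 2.78, 2.175 and 3.93 CPM at day 7. It fell 108-fold (-6.76 ± 0.29, adjusted p = 2.82e-09).

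Tcf21, the transcription factor of lung mesenchyme (ENSMUSG00000045680, chromosome 10, 22817281 to 22820174), was down to 2 to 6 counts per day 7 library. Tcf21 had 23.0, 27.7, 23.8, 25.3 and 17.9 CPM in the resting libraries and 0.183, 0.1099, 0.196, 0.395 and 0.323 CPM at day 7. The fall was 96.1-fold (-6.59 ± 0.26, adjusted p = 1.50e-09). Pdgfra, the receptor for platelet-derived growth factor A that alveolar fibroblasts carry (ENSMUSG00000029231, chromosome 5, 75152292 to 75198215), also fell. Pdgfra had 99.5, 81.6, 66.0, 83.2 and 66.5 CPM in the resting libraries and 3.90, 0.934, 6.78, 6.13 and 4.74 CPM at day 7. Its fall was 17.5-fold (-4.13 ± 0.37, adjusted p = 1.16e-06), and replicate 2 was the lowest by a wide gap. In these 4 genes no day 7 library came near a resting one.

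**Figure D2:**
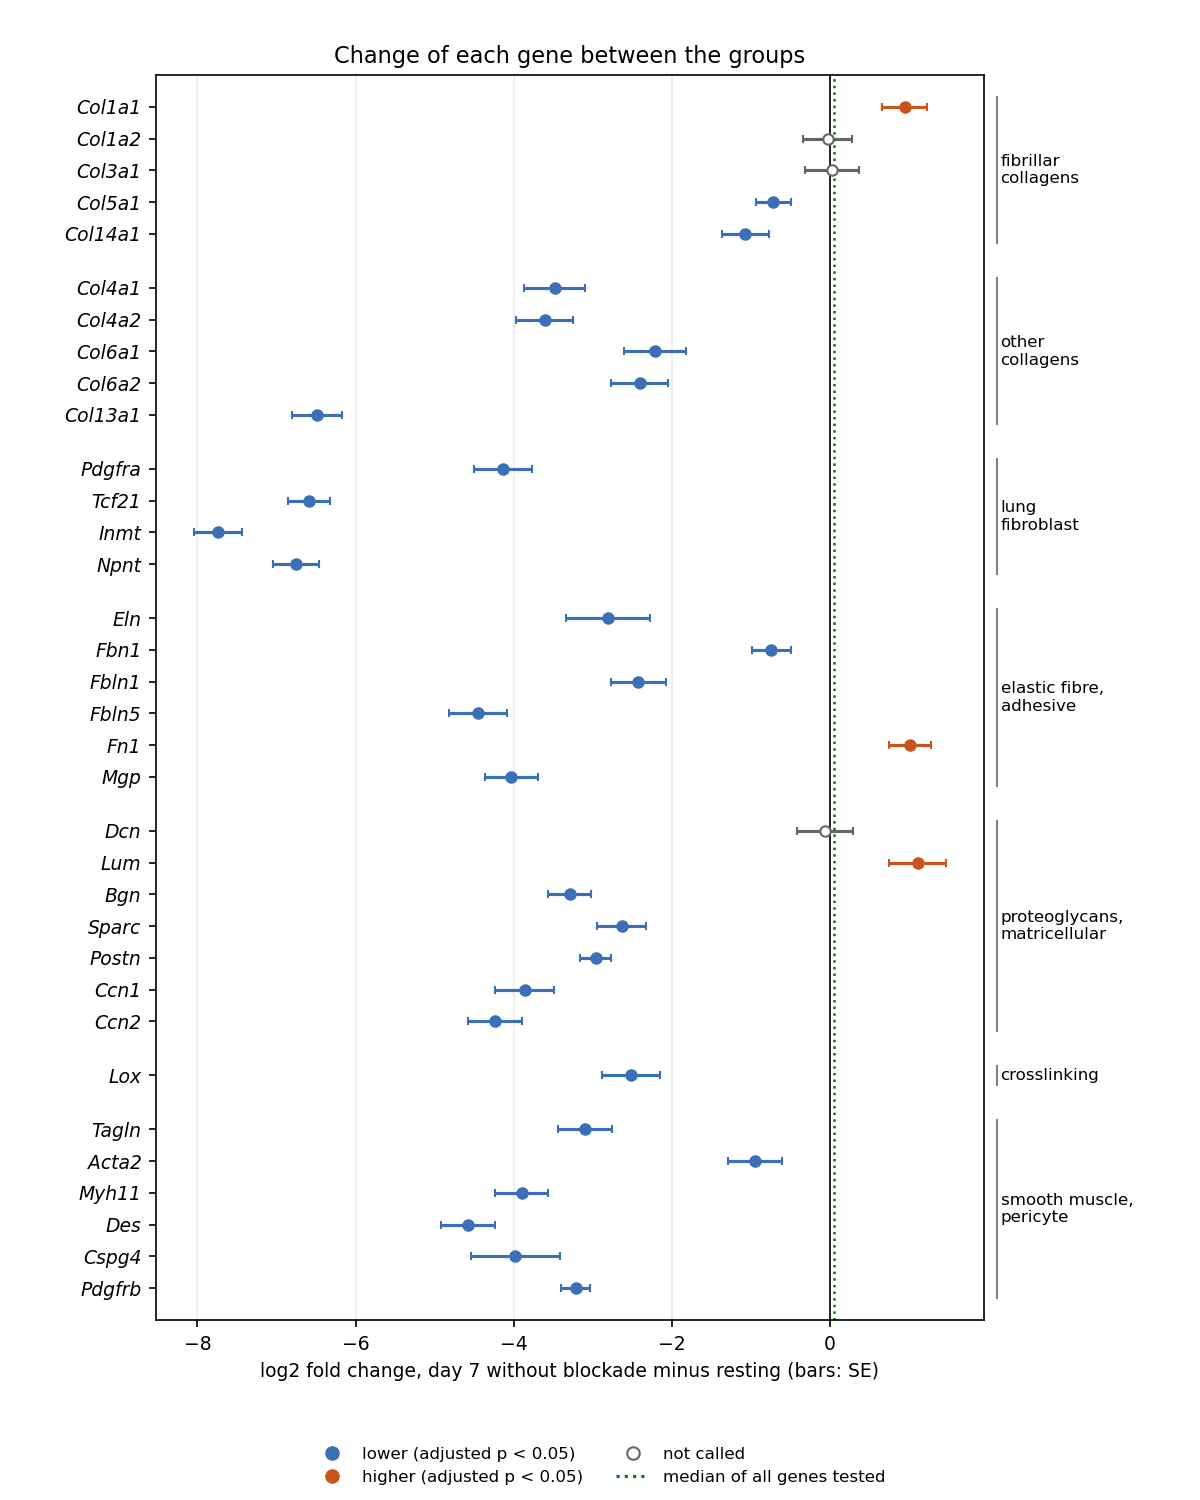
Log2 fold change (day 7 minus resting) of each of the 34 genes with its standard error, by role, from edgeR's quasi-likelihood fit; colour gives the call at an adjusted p of 0.05. The fibrillar and fibril-associated collagens lie between -1.07 and 0.94, while Inmt at -7.74, Npnt at -6.76, Tcf21 at -6.59 and Col13a1 at -6.49 lie furthest to the left.

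Of the 6 elastic fibre and adhesive glycoproteins 5 were lower and Fn1 was higher. Fn1, fibronectin, the adhesive protein of provisional matrix that macrophages make as well as fibroblasts (ENSMUSG00000026193, chromosome 1, 71585520 to 71653200), rose by 1.01 ± 0.27 on the log2 scale (adjusted p = 0.00706). Fn1 had 359.7, 248, 263, 332 and 279.8 CPM in the resting libraries and 648, 1019.7, 597, 418 and 305 CPM at day 7. Replicate 2, which was the lowest day 7 library for most members, was the highest for Fn1, and replicate 5 lay within the resting range. Without replicate 2 the log2 fold change was 0.74 (adjusted p = 0.00995). In the same 5 day 7 libraries the summed monocyte and macrophage markers were 6056, 9925, 6654, 5179 and 4728 CPM, and their part in the rise of Fn1 was not tested.

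Eln encodes tropoelastin, the core of the elastic fibre (ENSMUSG00000029675, chromosome 5, 134702593 to 134747323). Eln had 36.5, 36.8, 48.7, 41.5 and 35.2 CPM in the resting libraries and 9.38, 0.1099, 7.06, 4.55 and 7.22 CPM at day 7. Replicate 2 was at 2 counts, and the fall was 6.99-fold (-2.80 ± 0.53, adjusted p = 0.00076), or -3.62 on the log2 scale by limma-voom. Fbln5, fibulin-5, which is needed for elastic fibre assembly, also fell. Fbln5 had 33.2, 32.7, 35.7, 41.1 and 35.8 CPM in the resting libraries and 2.25, 0.165, 2.04, 2.11 and 1.56 CPM at day 7. Its fall was 21.9-fold (adjusted p = 6.81e-07). Fbn1, fibrillin-1 of the microfibril, had the smallest log2 fold change of this role. Fbn1 had 19.9, 22.6, 25.3, 22.2 and 19.5 CPM in the resting libraries and 22.1, 8.30, 13.2, 14.2 and 7.70 CPM at day 7. The groups overlapped through day 7 replicate 1, and the call (log2 fold change -0.74 ± 0.25, adjusted p = 0.025) ended when resting replicate 2, 3 or 4, or day 7 replicate 2, was left out (adjusted p up to 0.0608).

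Fbln1, fibulin-1, binds fibronectin and basement membrane proteins. Fbln1 had 22.0, 17.7, 16.8, 22.2 and 16.5 CPM in the resting libraries and 6.15, 1.04, 4.12, 4.22 and 2.21 CPM at day 7. It fell 5.37-fold (adjusted p = 7.62e-05). Mgp, matrix Gla protein, restrains calcification of vessels and cartilage and was abundant in the resting libraries. Mgp had 283, 241, 220.5, 279 and 236 CPM in the resting libraries and 21.5, 4.62, 21.1, 17.3 and 12.6 CPM at day 7. It fell 16.3-fold (-4.03 ± 0.33 on the log2 scale, adjusted p = 6.46e-07), and the groups were far apart.

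Among the small proteoglycans the 3 members differed. Dcn, decorin, binds type I collagen and spaces its fibrils (ENSMUSG00000019929, chromosome 10, 97479609 to 97518143). Dcn had 68.7, 26.4, 55.4, 34.1 and 55.0 CPM in the resting libraries and 81.8, 16.2, 49.8, 43.7 and 37.7 CPM at day 7. The day 7 range contained the resting range, with a difference of -0.065 ± 0.36 (adjusted p = 0.900). Lum, lumican, a relative of Dcn that lies near it on the chromosome (ENSMUSG00000036446, chromosome 10, 97565128 to 97572703), was low, at 1.35 to 2.79 CPM at rest (10 to 30 counts per library) and 1.65 to 8.04 CPM at day 7 (30 to 132 counts). Its rise of 1.11 ± 0.36 (adjusted p = 0.0229) ended with library totals alone (adjusted p = 0.0533), with limma-voom (adjusted p = 0.103), and without resting replicate 4 or day 7 replicate 1 (adjusted p = 0.0532 and 0.0605). Bgn, biglycan, binds collagen as Dcn does and was lower. Bgn had 149.5, 119, 122, 146 and 107 CPM in the resting libraries and 17.98, 5.00, 12.7, 14.4 and 15.6 CPM at day 7. It fell 9.81-fold (-3.29 ± 0.27, adjusted p = 6.05e-07).

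Matricellular proteins sit in the matrix and signal rather than bear load, and all 4 members fell without overlap. Sparc, a collagen chaperone of the matrix (ENSMUSG00000018593, chromosome 11, 55394500 to 55423183), was among the 3 highest members per kilobase in both groups. Sparc had 486, 426, 498, 576 and 454 CPM in the resting libraries and 89.2, 24.8, 99.7, 106 and 73.3 CPM at day 7. It fell 6.20-fold (-2.63 ± 0.31, adjusted p = 1.44e-05). Postn, periostin, is associated with type 2 inflammation and fibrosis. Postn had 66.2, 70.2, 70.3, 69.2 and 56.5 CPM in the resting libraries and 13.2, 5.60, 7.69, 9.03 and 7.27 CPM at day 7. Its fall was 7.79-fold (adjusted p = 5.26e-08), with a tighter day 7 group than most members.

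Ccn1 (ENSMUSG00000028195, chromosome 3, 145646976 to 145649981) and Ccn2 (ENSMUSG00000019997, chromosome 10, 24595442 to 24598683) encode secreted proteins that are induced quickly by YAP and serum response factor. Ccn1 had 317, 189, 184, 254 and 203 CPM in the resting libraries and 16.9, 3.74, 19.6, 19.2 and 19.3 CPM at day 7. Ccn2 had 113, 59.1, 68.7, 103 and 72.2 CPM in the resting libraries and 7.19, 1.37, 4.74, 4.61 and 4.09 CPM at day 7. They fell 14.6-fold and 18.9-fold (adjusted p = 2.41e-06 and 4.99e-07), and in Ccn1 day 7 replicate 2 stood well below the other 4. Lox, lysyl oxidase, starts the crosslinks of collagen and elastin. Lox had 46.1, 39.7, 30.1, 35.7 and 30.9 CPM in the resting libraries and 9.45, 1.26, 8.27, 6.20 and 6.57 CPM at day 7. It fell 5.73-fold (-2.52 ± 0.36, adjusted p = 9.22e-05).

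All 6 smooth muscle and pericyte genes were lower, with a median of -3.56, and Acta2 had the smallest fall. Myh11, the smooth muscle myosin heavy chain, marks mature smooth muscle (ENSMUSG00000018830, chromosome 16, 14194535 to 14291372). Myh11 had 10.7, 10.6, 11.1, 10.55 and 11.04 CPM in the resting libraries and 1.52, 0.440, 0.471, 0.923 and 0.323 CPM at day 7. It fell 14.9-fold (-3.90 ± 0.34, adjusted p = 6.80e-07), from resting libraries that hardly varied. Des, desmin, is the intermediate filament of muscle and pericytes. Des had 35.0, 32.02, 29.9, 41.1 and 27.8 CPM in the resting libraries and 1.16, 0.385, 1.33, 1.19 and 2.80 CPM at day 7. Its fall was 23.9-fold (adjusted p = 2.10e-07). Tagln, transgelin, is an actin-binding protein of smooth muscle. Tagln had 10.8, 7.95, 8.16, 7.57 and 7.71 CPM in the resting libraries and 1.22, 0.275, 0.706, 1.71 and 1.08 CPM at day 7. It fell 8.56-fold (adjusted p = 7.16e-06), and some of its annotated exons overlap those of Pcsk7 on the other strand.

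Acta2, smooth muscle actin, is the usual marker of smooth muscle and myofibroblasts (ENSMUSG00000035783, chromosome 19, 34241090 to 34255590). Acta2 had 21.7, 22.5, 16.7, 31.2 and 21.9 CPM in the resting libraries and 26.0, 8.90, 8.90, 9.42 and 5.93 CPM at day 7. Day 7 replicate 1 lay among the resting libraries and the other 4 below them, and the log2 fold change was -0.95 ± 0.34 (adjusted p = 0.0373). That call ended when any 1 of 8 libraries was left out, the exceptions being resting replicate 3 and day 7 replicate 1, with adjusted p up to 0.0984. Pdgfrb, the pericyte receptor for platelet-derived growth factor B, had a highest day 7 library 2.10 times its lowest. Pdgfrb had 35.1, 34.3, 32.2, 34.1 and 33.6 CPM in the resting libraries and 3.53, 3.02, 4.98, 2.37 and 4.09 CPM at day 7. It fell 9.29-fold (-3.22 ± 0.18, adjusted p = 1.29e-08). Cspg4, the NG2 proteoglycan of pericytes, was at 3.78 to 5.58 CPM at rest (41 to 54 counts) and at 0 to 0.914 CPM at day 7 (0 to 15 counts). The library with 0 counts, replicate 2, allows up to 3 counts (counting error only). That is 0.147 CPM by its total counts and 0.165 CPM on the TMM scale of the values printed here. The log2 fold change of Cspg4 was -3.98 ± 0.56 (adjusted p = 6.22e-05), and -4.68 by limma-voom and -4.82 without day 7 replicate 1.

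What the members' reads were made of differed between the groups. Fn1 took 7.38 to 8.43% of the summed CPM of the 34 genes in resting libraries and 33.4 to 82.4% at day 7, with the highest share in replicate 2. Col1a1, Col1a2 and Col3a1 together took 7.61 to 9.74% at rest and 8.43 to 37.2% at day 7, with the lowest share in the same library. Inmt, Npnt, Tcf21 and Col13a1 took 22.7 to 26.0% at rest and 0.209 to 0.875% at day 7. The sum itself was 3369 to 4269 CPM at rest and 893 to 1649 CPM at day 7. CPM is not corrected for gene length here. These groupings were chosen after the values were seen and are a description without a test.

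The order of the members by level changed as well. Genes were compared by level per kilobase of the gene's longest protein-coding transcript in the basic GENCODE set. Counts are per gene, so the order can depend on the length chosen. On this scale Inmt stood first in the resting libraries at 557 ± 75.9 CPM per kb (mean ± SD, n = 5). Mgp followed at 408 ± 45.1, Sparc at 212 ± 24.7, Ccn1 at 114 ± 27.9 and Npnt at 54.0 ± 4.59. At day 7 Fn1 stood first at 71.9 ± 32.9 CPM per kb, before Sparc at 34.2 ± 14.2, Col3a1 at 31.1 ± 16.5, Dcn at 26.1 ± 13.5 and Mgp at 25.0 ± 11.4, and Sparc to Mgp do not differ beyond their spread. Col1a2 and Col1a1 followed, at 17.6 ± 7.69 and 15.4 ± 6.64. Inmt went from rank 1 to rank 14 and Npnt from rank 5 to rank 28 of 34, while Fn1 came from rank 8 and Col1a1 from rank 22.

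Ratios of 2 genes within a library do not depend on how libraries are scaled, and 10 pairs were compared by an exact two-sided permutation test of the mean log2 ratio, 5 against 5, adjusted over the 10. The ratio of Col1a1 to Col1a2 counts was 0.403 to 0.548 at rest and 0.885 to 1.21 at day 7. This is a difference of 1.00 on the log2 scale without overlap (exact permutation adjusted p = 0.0198), between the chains of 1 protein. Col3a1 against Col1a1 was 3.10 to 4.31 at rest and 1.37 to 2.36 at day 7 (-1.01, exact permutation adjusted p = 0.0198). Both of these ratios contain Col1a1, so they are not independent results. Col1a2 and Col3a1 did not pass on their own. In contrast, Col4a1 against Col4a2 was 1.51 to 1.66 at rest and 1.53 to 1.92 at day 7 (0.086, exact permutation adjusted p = 0.282), although each gene fell 11.2-fold or more. Col6a1 against Col6a2 was 1.16 to 1.72 and 1.45 to 1.88 (0.18, exact permutation adjusted p = 0.218).

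Tagln against Acta2 had the largest difference of the 10 pairs, -2.14 on the log2 scale (exact permutation adjusted p = 0.0198). The ratio was 0.244 to 0.499 at rest and 0.0338 to 0.186 at day 7, so these smooth muscle genes did not fall in step. Sparc against Col4a1 was 1.51 to 1.86 at rest and 2.25 to 4.76 at day 7 (0.95, exact permutation adjusted p = 0.0198). Dcn against Lum fell by 1.13 (exact permutation adjusted p = 0.0476) with overlap (10.02 to 33.3 at rest, 7.76 to 12.5 at day 7), and this call ended at equal depth and without day 7 replicate 2, 4 or 5 (adjusted p up to 0.0635). Pdgfra against Pdgfrb differed by -1.11 and did not pass (exact permutation adjusted p = 0.0661), but without day 7 replicate 4, where the ratio was 2.56, it was -1.43 (exact permutation adjusted p = 0.0159). Ccn1 against Ccn2 (0.32, exact permutation adjusted p = 0.215) and Fn1 against Col1a1 (0.10, exact permutation adjusted p = 0.937) did not pass. Fn1 against Col1a1 was 31.2 in day 7 replicate 2, and without that library the difference had the other sign, at -0.45.

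**Figure D3:**
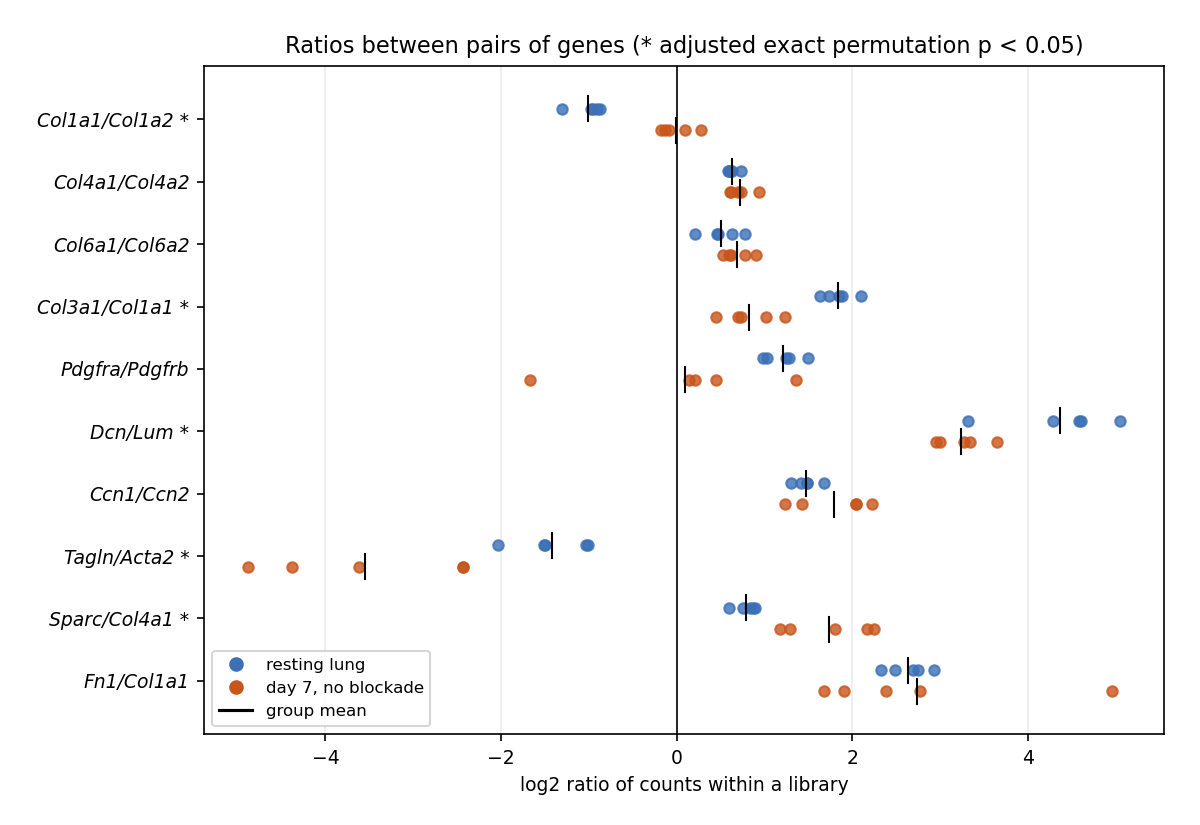
Log2 ratio of the counts of 2 genes in each library for the 10 pairs, with 1 point per library (blue for resting, orange for day 7), a black bar at the group mean and a star for an adjusted exact permutation p below 0.05. Col1a1/Col1a2, Col3a1/Col1a1, Tagln/Acta2 and Sparc/Col4a1 separate without overlap, whereas Col4a1/Col4a2 has the same range in both groups but for 1 day 7 library.

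Genes outside the 34 gave the surroundings of these changes. Of 12 other collagens 11 passed the filter, and 9 were lower and 1 higher (median log2 fold change -2.19). Col4a3, a chain of the type IV collagen of the alveolar basement membrane, fell from 23.0 ± 4.71 to 1.12 ± 0.414 CPM, and Col15a1, a collagen next to basement membranes, was the 1 that rose, from 1.83 ± 0.868 to 4.10 ± 2.39 CPM. Other basement membrane genes were lower in 10 of 14 cases (median -2.33), among them Lama2, a laminin chain, with -3.99 ± 0.36 on the log2 scale. In the list of elastic fibre and matricellular genes 16 of 25 tested (26 listed) were lower and 2 higher (median -1.61). Mfap2, a microfibril protein, fell from 36.7 ± 4.31 to 1.24 ± 0.577 CPM, and Ltbp1, which stores latent transforming growth factor beta, fell from 60.8 ± 10.9 to 3.01 ± 0.955 CPM. The 2 that rose were Spp1, osteopontin, from 82.6 ± 12.7 to 501 ± 134 CPM, and Vcan, the proteoglycan versican, from 14.5 ± 2.44 to 55.7 ± 20.8 CPM. Monocyte and macrophage markers were higher in the same libraries, and the part of those cells in these 2 rises was not tested.

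Of 18 further fibroblast markers 14 were lower and 1 higher (median -2.66). Tbx4, a transcription factor of lung mesenchyme, fell from 25.4 ± 2.24 to 0.699 ± 0.283 CPM and Limch1 fell from 125 ± 12.0 to 1.51 ± 0.856 CPM. Thy1, which T cells carry as well as fibroblasts, was the 1 that rose, from 1.499 ± 0.682 to 10.55 ± 4.58 CPM, in libraries where 10 of 10 T cell markers were higher (sums of 85.1 to 125 CPM at rest and 357 to 912 CPM at day 7), and their part was not tested. Smooth muscle and pericyte markers other than the members were lower in 16 of 17 tested (20 listed, median -3.37), with Cald1, caldesmon, going from 84.0 ± 9.69 to 4.69 ± 1.60 CPM and Smtn, smoothelin, from 30.5 ± 6.99 to 4.97 ± 0.293 CPM. Mesothelial markers were lower in 5 of 6 (median -1.86). In a list of targets of YAP with TEAD and of serum response factor, 14 of 17 genes were lower and 2 higher (median -2.23). That list also holds genes of these factors themselves, so the count is not one of targets alone. Axl, a receptor kinase, was higher, with 0.75 ± 0.23 on the log2 scale, while Amotl1, a regulator of YAP, fell from 43.9 ± 5.91 to 1.75 ± 0.790 CPM.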

How the data were processed

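RNA sequencing counts per gene were taken as the authors deposited them: whole numbers, not normalized, with the resting and day 7 columns in separate tables that were joined by Ensembl identifier. The submitters' processing notes name STAR 2.5.2b, Subread 1.5.2, featureCounts, Trimmomatic 0.36 and bcl2fastq 2.17, with build mm10. No source used here gives the strand setting, the annotation release or how multi-mapping reads were counted. Values of the 12 members whose exons overlap another gene are therefore uncertain. A further 10 columns headed by numbers matched no label and were not used. No row lacked a gene. Total counts per library, without TMM scaling, give a floor of 3 counts at 0.233 to 0.450 CPM (resting) and 0.112 to 0.191 CPM (day 7). The CPM values of members are on the TMM scale. Libraries of a group differed by more than sampling noise in each pair (chi-square per degree of freedom 5.95 or more).

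Genes were filtered with filterByExpr, which kept 16500 genes and all 34 members. They were tested with edgeR 4.0.16 (R 4.3.3) by the quasi-likelihood test with robust dispersion, TMM scaling, group as the term and Benjamini-Hochberg adjustment at 0.05. Fold changes are day 7 minus resting and standard errors are the log2 fold change over the square root of F. Symbols, coordinates and transcript lengths are from GENCODE M21. Pair ratios used counts plus 0.5 and exact permutation tests in scipy 1.17.1 (smallest p 0.00794). Alternatives were library totals alone, RLE factors, DESeq2 1.42.0, limma-voom (limma 3.58.1), no filter, a filter of 10 counts, equal depth, a replicate block, leaving out each library, and pseudocounts of 1 and 0.1. The 34 members, the 10 pairs and the 15 gene lists were chosen with earlier results of these data known. By rule, members with a mean of 5 CPM or more in a group have each library's value printed, and up to 2 called genes per direction and list, by adjusted p, could be named. One gene that the rule names is not reported here.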

Additional observations from a re-analysis of the deposited data

Results flagged for a closer look

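In 4 of the 68 groups of 5 libraries (34 genes in 2 groups), the highest or lowest library stood apart from the other 4 by more than Dixon's 95% criterion allows; chance gives about 1 in 20. For Col6a2 it was resting replicate 4, the highest at 52.7 CPM. Resting replicate 1 was the highest for Tagln, at 10.8 CPM. For Ccn1 it was day 7 replicate 2, the lowest at 3.74 CPM, the library that was lowest in 28 of the 34 genes. Day 7 replicate 1 was the highest for Acta2, at 26.0 CPM. Leaving it out gave Acta2 a log2 fold change of -1.45 (adjusted p = 7.47e-05, edgeR's quasi-likelihood test).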

How the results depend on the processing

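The 28 lower members stayed at 28 under each of the 8 other settings of the fit and at 25 to 28 when a library was left out; the higher members were 2 to 3 when a library was left out, and 1 with library totals alone and with limma-voom. Over all genes, library totals alone gave 2495 higher and no filter on low counts gave 6715 lower. The genes that did not pass changed sign: Col1a2 was 0.081 and Dcn 0.045 with no filter, and Col3a1 was -0.16 with library totals, -4.9e-06 with RLE factors, -0.21 with limma-voom and -0.18 with the replicate block; leaving out a library gave -0.17 to 0.22 for Col1a2, -0.24 to 0.28 for Col3a1 and -0.37 to 0.16 for Dcn. The cause was not tested. At equal depth the ratio Col6a1/Col6a2 passed (0.43, exact permutation adjusted p = 0.0476) and Dcn/Lum did not (-1.19, 0.0529). Without a library the log2 ratio differences were -1.39 to -0.96 for Dcn/Lum, -0.45 to 0.37 for Fn1/Col1a1 and -1.43 to -0.67 for Pdgfra/Pdgfrb. Replicate numbers did not pair the libraries: same-numbered deviations correlated at 0.12, 0.00048, -0.11, -0.19 and 0.089, and not every library correlated best with its own number. With the replicate block 28 members were lower and 2 higher (Lum lost its call, adjusted p = 0.0741, edgeR), and the ratios Col1a1/Col1a2 (1.00), Col3a1/Col1a1 (-1.01), Dcn/Lum (-1.13), Tagln/Acta2 (-2.14) and Sparc/Col4a1 (0.95) had an exact adjusted p of 0.125, where 5 pairs allow no p below 0.0625. Depth limits Col13a1, Tcf21 and Cspg4, which had 21, 22 and 28 counts in all at day 7.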

Other observations

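Genes that process collagen inside and outside the cell had 6 of 18 lower, 4 higher and 8 not passing the quasi-likelihood test in edgeR (median log2 fold change -0.29), where 23.4% of all genes were lower and 23.3% higher. Pcolce2, an enhancer of procollagen cleavage, fell from 99.8 ± 15.5 to 0.721 ± 0.393 CPM and Loxl1, a relative of Lox that acts on elastin, from 19.2 ± 3.19 to 2.40 ± 0.944 CPM. P4ha1 and P4hb, the subunits of the prolyl hydroxylase that stabilises the collagen helix and is used by many cell types, rose, P4ha1 from 40.4 ± 8.18 to 116 ± 46.6 CPM and P4hb from 336 ± 30.9 to 490.5 ± 93.2 CPM. Of 20 receptors for matrix 11 were lower and 3 higher (median -0.83). Itga1, the collagen-binding integrin chain, fell from 135 ± 15.3 to 14.2 ± 1.82 CPM and Ddr2, a receptor kinase for fibrillar collagen, from 54.7 ± 5.56 to 3.08 ± 0.912 CPM. Itgav and Itgb5, integrin chains that pair to bind vitronectin, rose, Itgav from 49.8 ± 8.36 to 106 ± 10.2 CPM and Itgb5 from 16.7 ± 2.39 to 30.1 ± 6.85 CPM, in libraries with higher monocyte and macrophage markers (10 of 14); the part of those cells was not tested.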
